A study of Arabidopsis thaliana with 6 samples.

Results

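The centromere cores of *Arabidopsis thaliana* were described through the small RNA (sRNA) clusters that lie in them. A cluster is a genomic interval in which sRNA reads were counted. Core clusters were those that start inside a window of about 2 Mb around each centromere, from 14.1 to 16.1 Mb on chromosome 1, 2.6 to 4.6 Mb on chromosome 2, 12.6 to 14.6 Mb on chromosome 3, 3 to 5 Mb on chromosome 4 and 10.7 to 12.7 Mb on chromosome 5 (TAIR10). The ribosomal DNA cluster of chromosome 3, Cluster_9265, was left out. Of 17131 clusters on the 5 chromosomes, 2046 met this rule, with 335, 393, 460, 427 and 431 on chromosomes 1 to 5. All 6 libraries were used. In 11 core clusters no library had a count, and 1545 core clusters had counts in all 6 libraries.

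The libraries came from rosette leaves of single Col-0 plants at bolting, grown in days of 12 h light. Of the 6 plants, 2 were *msh1* memory plants of the first generation. They had descended from plants in which RNAi silenced *MSH1*, a gene for a protein of plastids and mitochondria, and no longer carried the RNAi transgene. Both were full sibs from 1 parent, so that a trait of this family and memory cannot be told apart. The 4 wild type plants were Col-0 controls from transformation events without the transgene. Total counts ranged from 7966799 to 18134284 per library, so that 3 counts, taken here as the floor, corresponded to between 0.202 and 0.491 CPM (counts per 1000000, with library sizes scaled by TMM). Nothing in the labels ties a memory plant to a wild type plant.

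In plants, most sRNA of transposons and repeats is short interfering RNA (siRNA) made through RNA polymerase IV, an RNA-dependent RNA polymerase and a Dicer-like enzyme. It guides DNA methylation to sequences that resemble it. Arabidopsis centromeres consist of long arrays of a short tandem satellite, set in a region rich in old transposons, and the TAIR10 genome holds only a part of these arrays. Tandem arrays of 5S ribosomal RNA genes lie beside several of them. The tables give no read length and no strand, so that siRNA, miRNA and breakdown products of ribosomal RNA cannot be told apart in the counts.

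The sequence of the windows fitted their name. Among the 24-base words of the 5 windows, the distance between successive copies of a word was most often 888, 648 or 178 bases. Words that recur at the longest of these covered 454949 bases of the genome, and at least 50% of the bases of 96 core clusters. Of the bases in words that recur at 178 bases, 89.1% also lay in the 888-base set. Of the bases in the 888-base set, only 50.2% lay in words that recur at 178 bases. Core clusters had a median width of 2078.5 bases (38 to 53899), against 1625 in the flanks, which are the clusters within 1 Mb outside a window, and 1013 in the chromosome arms. The median core cluster had 54.5% of its words at a single place in the genome, against 79.0% in the flanks and 96.2% in the arms. GC content had medians of 38.5% in core clusters, 34.4% in the flanks and 35.1% in the arms. The clusters covered 47.0% of the window on chromosome 1 and between 66.1% and 79.6% of the others. Annotated genes in the windows were mostly pseudogenes, 248 of 293 on chromosome 1, 350 of 435 on chromosome 3, 387 of 454 on chromosome 4 and 362 of 448 on chromosome 5, but 346 of 615 on chromosome 2. RefSeq gives these no transposon family.

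Several kinds of sequence recur in the results and are shown here from the TAIR10.1 reference of RefSeq, 5′ to 3′. The satellite is shown because it makes up the long arrays of the centromeres. Units A and B are successive units of 178 bases at the left end of Cluster_14938, the satellite cluster with the most counts (chr5:11726029-11726206 and chr5:11726207-11726384, forward strand). Unit C lies in Cluster_4956 (chr2:3623239-3623416, forward strand), the satellite cluster with the most counts on another chromosome. Capitals mark bases that differ from unit A, 19 in unit B and 16 in unit C.
Satellite unit A: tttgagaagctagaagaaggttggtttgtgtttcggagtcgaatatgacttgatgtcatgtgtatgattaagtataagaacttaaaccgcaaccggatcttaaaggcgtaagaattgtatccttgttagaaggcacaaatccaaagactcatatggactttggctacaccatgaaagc
Satellite unit B: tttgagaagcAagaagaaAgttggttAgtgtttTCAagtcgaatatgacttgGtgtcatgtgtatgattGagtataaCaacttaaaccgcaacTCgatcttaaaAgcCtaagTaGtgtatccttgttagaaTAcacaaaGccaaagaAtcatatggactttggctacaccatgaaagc
Satellite unit C: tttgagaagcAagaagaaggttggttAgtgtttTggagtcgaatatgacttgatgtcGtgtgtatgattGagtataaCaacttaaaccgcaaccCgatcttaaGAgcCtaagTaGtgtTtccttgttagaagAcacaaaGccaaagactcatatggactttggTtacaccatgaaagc

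A second tandem repeat, with a period near 500 bases, held the cluster with the most counts on chromosome 5 (Cluster_14832) and that with the second most on chromosome 4 (Cluster_11223). A stretch of 150 bases is shown from Cluster_14832 (chr5:11185990-11186139, forward strand), with its best ungapped match in Cluster_11223 (chr4:3054390-3054539, forward strand), Cluster_9268 (chr3:14208604-14208753, reverse strand) and Cluster_9155 (chr3:13774521-13774670, reverse strand). Capitals mark bases that differ from Cluster_14832, 7, 31 and 28 respectively.
Repeat in Cluster_14832: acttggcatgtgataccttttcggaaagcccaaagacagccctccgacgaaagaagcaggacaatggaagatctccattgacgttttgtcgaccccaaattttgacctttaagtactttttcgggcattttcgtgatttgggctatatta
Repeat in Cluster_11223: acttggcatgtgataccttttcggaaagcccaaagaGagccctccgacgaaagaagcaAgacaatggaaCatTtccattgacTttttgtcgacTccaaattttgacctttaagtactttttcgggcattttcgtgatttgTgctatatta
Repeat in Cluster_9268: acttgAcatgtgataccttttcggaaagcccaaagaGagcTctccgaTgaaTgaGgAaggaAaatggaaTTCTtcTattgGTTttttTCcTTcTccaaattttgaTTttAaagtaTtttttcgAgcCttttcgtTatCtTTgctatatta
Repeat in Cluster_9155: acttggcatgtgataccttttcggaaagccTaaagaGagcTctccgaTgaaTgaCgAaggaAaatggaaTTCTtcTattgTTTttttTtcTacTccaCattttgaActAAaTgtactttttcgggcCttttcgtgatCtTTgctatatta

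The core cluster with the most counts, Cluster_9262, is a copy of ribosomal DNA. It lies on chromosome 3 (14192780 to 14193418, 639 bases, within the transcribed region AT3G00660), a short way from the ribosomal DNA cluster that the rule leaves out. The reference holds 60 undetermined bases near its left end. The 550 bases to the right of these are identical to bases 14203278 to 14203827 in Cluster_9265. In the best ungapped placement, 473 of the 550 match the ribosomal DNA cluster at the top of chromosome 2, Cluster_4135. The longest identical run there was 344 bases, and gaps were not tried. The first 200 of the 550 bases are shown (chr3:14192869-14193068, forward strand), with the 1 base that differs from Cluster_4135 in capitals.
Copy of ribosomal DNA in Cluster_9262: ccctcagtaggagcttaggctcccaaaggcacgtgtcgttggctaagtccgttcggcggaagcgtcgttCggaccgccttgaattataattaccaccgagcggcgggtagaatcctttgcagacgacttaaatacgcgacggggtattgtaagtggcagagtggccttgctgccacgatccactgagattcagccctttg

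Mature miRNAs are shown for 2 miRNA genes that lie in the most counted clusters of chromosome 2, with bases 2 to 8 in capitals. *MIR396a*, at the right end of Cluster_5078, has a mature sequence on each arm of its precursor (chr2:4142443-4142463 and chr2:4142331-4142351, reverse strand). *MIR8175* lies in Cluster_4986 (chr2:3740938-3740957, forward strand).
miR396a, first arm: tTCCACAGctttcttgaactg
miR396a, second arm: gTTCAATAaagctgtgggaag
miR8175: gATCCCCGgcaacggcgcca

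sRNA was sparser over core clusters than over the rest of the genome. In the median core cluster the density was 0.734 ± 0.144 CPM per kb of cluster, here without TMM scaling (SD, n = 6 libraries), against 2.64 ± 0.647 in the flanks and 4.75 ± 0.866 in the arms. Each of the 6 libraries had the lower median in the core. The mean log2 ratio was -1.83 to the flanks and -2.70 to the arms (exact two-sided sign-flip permutation test, p = 0.03125 for each, the smallest that 6 libraries allow, and 0.03125 after adjustment over both). Summed over clusters, densities were 5.29 ± 1.07 in the core, 5.81 ± 0.940 in the flanks and 38.7 ± 1.94 in the arms. The log2 ratio of the sums to the flanks was -0.14, with 4 libraries below 0 and both memory libraries above (0.35 and 0.08), and it was not distinguishable from 0 (exact permutation test, p = 0.344). The ratio to the arms was -2.89 (exact permutation test, p = 0.03125, adjusted p = 0.0625). With the 2 core clusters copied from ribosomal DNA left out, the ratios of the sums were -0.74 and -3.49, with every library below 0 (exact permutation test, adjusted p = 0.03125 for each). The arms then still held the ribosomal DNA cluster of chromosome 2, Cluster_4135. With organelle copies and rRNA repeat clusters also left out everywhere, the arms had a density of 31.3 and the ratio to them was -3.18 (exact permutation test, adjusted p = 0.03125). Read placement and incomplete assembly also differ between these regions, and their part in the densities was not tested.

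Within each window, counts were low in most bins and high in a few. On chromosome 1 the lowest bin of 100 kb, 0.25 Mb left of the window's midpoint, held 7.90 CPM in the mean of wild type and 7.75 CPM in memory. The highest, 0.95 Mb left of the midpoint, held 1494 and 3683 CPM. On chromosome 3 the highest bin, 0.55 Mb right of the midpoint, contained the ribosomal DNA copy and held 7789 CPM in wild type, against 22392 CPM in the memory plants. On chromosomes 4 and 5 the highest bins lay at -0.95 and -0.55 Mb, and each contained clusters of the repeat near 500 bases. The largest cluster of the bin on chromosome 4 was not of this repeat. It was Cluster_11227, at pseudogenes, with 3.16% of its bases in words that recur near 500 bases. Its mean was 1562 CPM over the wild type libraries, against 969 CPM over the memory libraries. Cluster_11223, of the repeat, had means of 705 and 687 CPM. On chromosome 2 the highest bin, 0.55 Mb right of the midpoint, held 2366 CPM in wild type, against 3234 CPM in the memory plants. Those of chromosomes 4 and 5 held 2419 and 1749 CPM in wild type, against 1810 and 1370 CPM in the memory plants.

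**Figure D1:**
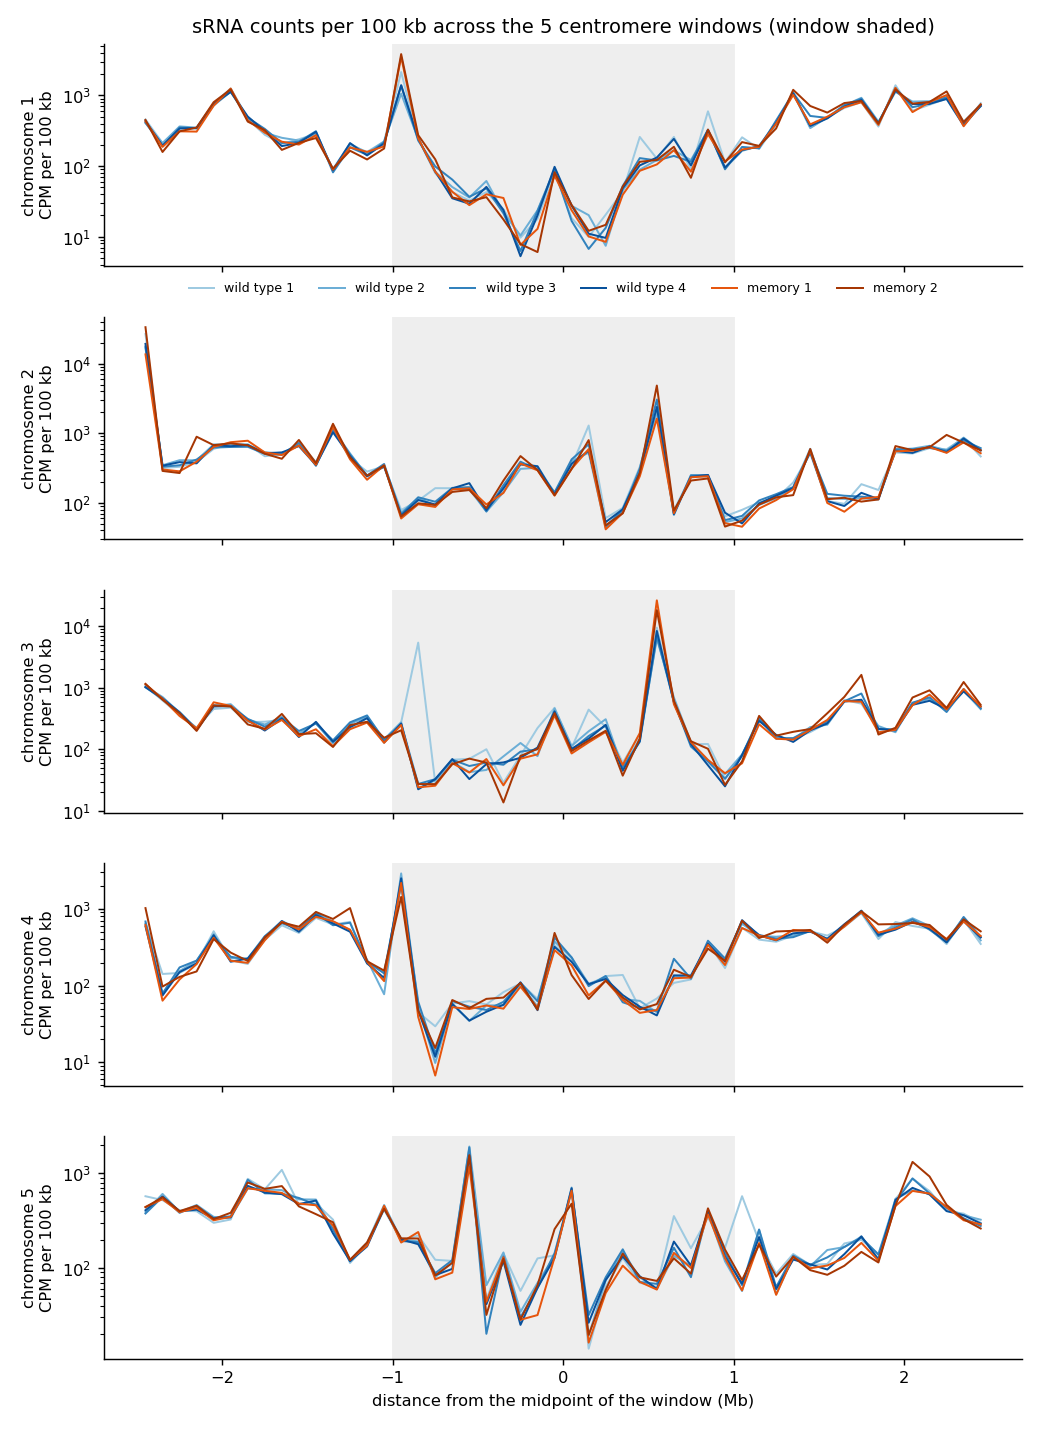
Summed CPM of clusters in bins of 100 kb (log axis) against the distance from the midpoint of each window in Mb, 1 line per library, with the window shaded. The lowest bin of each chromosome in wild type lies inside its shaded window, and wild type 1 stands far above the others in the bin of Cluster_8928 on chromosome 3.

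Most core counts came from a few clusters. Core clusters held 3.53% of all counts over the 6 libraries. Cluster_9262 alone held 34.0% of the core counts, the first 5 clusters held 53.1% and the first 50 held 71.7%. The share of library counts in the core was 3.16%, 3.36%, 3.26% and 3.13% in wild type 1 to 4, and 4.98% and 3.30% in memory 1 and 2. Memory 2 lay among the wild type values and memory 1 above them, and the means of 4.14% ± 1.19 (SD, n = 2) and 3.23% ± 0.104 (SD, n = 4) did not differ beyond this spread (exact two-sided permutation test, p = 0.267). With 2 and 4 libraries the smallest p of this test is 0.133. Without the ribosomal DNA copies the direction turned, with 2.05% ± 0.203 in memory (n = 2) and 2.44% ± 0.158 in wild type (n = 4), the groups lying apart (exact permutation test, p = 0.133). Leaving out also Cluster_8928, almost all of whose counts came from wild type 1, gave 2.05% and 2.33%, and the groups then overlapped (exact permutation test, p = 0.267). In the central 1 Mb of the windows the share was 0.588% ± 0.0910 in memory (n = 2) and 0.768% ± 0.0764 in wild type (n = 4), again without overlap (exact permutation test, p = 0.133). All these totals held the ribosomal DNA clusters Cluster_9265 and Cluster_4135. With these 2 left out of the total, the share of all core clusters was 8.40% and 5.04% in memory 1 and 2. In wild type it was 4.85% to 4.98%, below both memory libraries (exact permutation test, p = 0.133). Leaving out the copies and these 2 clusters together was not tested.

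The ribosomal DNA copy was the main source of the high core share of memory 1. Cluster_9262 had 139772, 84644, 76965 and 93919 counts in wild type 1 to 4, and 336465 and 110868 in memory 1 and 2. On the CPM scale both memory libraries lay above all wild type libraries, with 22213 ± 5769 CPM (SD, n = 2) against 7631 ± 1507 CPM (SD, n = 4). This is a log2 fold change of 1.54 ± 0.35 (SE). It did not pass the edgeR test over all clusters (adjusted p = 0.364), while DESeq2 gave an adjusted p of 1.79e-06. All its words occur in the ribosomal DNA clusters, so reads counted here and reads from the ribosomal DNA arrays cannot be told apart. Of the counts in Cluster_9262 and Cluster_9265 together, Cluster_9262 took 3.29%, 4.06%, 3.56% and 4.01% in wild type 1 to 4, and 9.26% and 5.62% in memory 1 and 2. Cluster_9265 itself had a log2 fold change of 0.49 (edgeR adjusted p = 0.835).

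**Figure D2:**
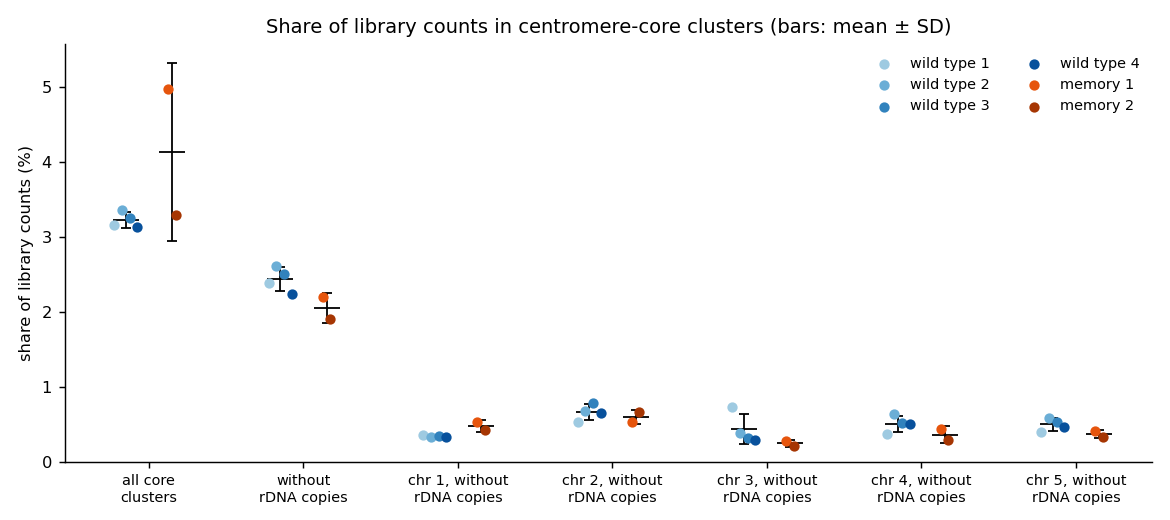
Share of library counts (%) in core clusters, for all core clusters, without the 2 ribosomal DNA copies, and for each chromosome without them, 1 point per library with the mean and SD of each group. With all clusters memory 1 sits at 4.98%, and without the ribosomal DNA copies both memory points sit below the 4 wild type points. All totals include the ribosomal DNA clusters Cluster_9265 and Cluster_4135.

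By chromosome, the share of library counts, with Cluster_9265 and Cluster_4135 in the total, was higher in both memory libraries on chromosomes 1 and 3. On chromosome 1 it was 0.352%, 0.329%, 0.340% and 0.331% in wild type and 0.530% and 0.423% in memory. On chromosome 3 the means were 2.33% ± 1.03 in memory (n = 2) and 1.23% ± 0.192 in wild type (n = 4). For both, the exact two-sided permutation test gave p = 0.133, or 0.333 after adjustment over 5 chromosomes. Without the ribosomal DNA copies chromosome 3 turned, with 0.282% and 0.209% in memory below 0.736%, 0.387%, 0.323% and 0.296% in wild type (exact permutation test, p = 0.133, adjusted p = 0.333). Chromosome 1 turned as well when Cluster_1912, its cluster with the most counts, was left out, with 0.178% and 0.144% in memory below 0.191%, 0.228%, 0.213% and 0.205% in wild type (exact permutation test, p = 0.133, adjusted p = 0.222). On chromosomes 2, 4 and 5 the groups overlapped, with means of 0.598%, 0.364% and 0.369% in memory and 0.661%, 0.506% and 0.498% in wild type. Without the cluster with the most counts, Cluster_5078 on chromosome 2, the groups of chromosome 2 came apart, with 0.340% ± 0.0521 in memory (n = 2) and 0.423% ± 0.0349 in wild type (n = 4, exact permutation test, p = 0.133, adjusted p = 0.222).

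Cluster_1912 held the most counts of chromosome 1. It spans 7325 bases (14190064 to 14197388) over the pseudogenes AT1G37170 and AT1G37180 and the noncoding gene AT1G07017, and held 5.30% of the core counts. It had 1959, 828, 1128 and 1173 CPM in wild type 1 to 4, and 3328 and 3639 CPM in memory 1 and 2. Both memory plants lay above all wild type plants, and the log2 fold change was 1.45 ± 0.35 (SE). It did not pass the edgeR test over all clusters (adjusted p = 0.383), and DESeq2 gave an adjusted p of 0.00337. Of its words, 63.8% occur once in the genome, against 0% for the ribosomal DNA copy. The next clusters of chromosome 1 were much smaller and were not distinguishable between the groups (edgeR adjusted p of 0.909 and 0.955). Cluster_2184, at the right end of the protein-coding gene AT1G42470, had 167 ± 28.2 CPM in memory (n = 2) and 160 ± 13.5 CPM in wild type (n = 4). Cluster_2140, at the tRNA gene AT1G42120, had 124 ± 7.43 and 131 ± 54.3 CPM.

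The largest clusters of chromosome 2 hold miRNA genes. Cluster_5078 (4135514 to 4142621) held 6.45% of the core counts. It contains *MIR396a*, whose miRNA lowers transcripts of growth-regulating factor genes in leaves. Its values were 1834, 1933, 2888 and 2238 CPM in wild type 1 to 4, and 1489 and 4674 CPM in memory 1 and 2. The memory libraries thus lay on either side of the wild type values, and the fold change turned negative without memory 2. Cluster_4986, with *MIR8175*, had 1167 CPM in wild type 1 and 390 to 556 CPM in the other wild type libraries, and 483 and 680 CPM in memory. Neither cluster passed the test (edgeR adjusted p of 0.731 and 0.946). The windows held 14 annotated miRNA genes, 8 of them inside core clusters and 1, *MIR854d*, across the edge of one. *MIR854a* to *MIR854e* share 1 mature sequence. The core cluster that holds *MIR854c* had 1, 5, 0 and 28 counts in wild type, against 1 and 0 in the memory plants, too few to be tested. The other 5 clusters with a miRNA gene had means of 1.61 to 13.4 CPM in memory and 1.25 to 13.8 CPM in wild type, and none passed the test.

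**Figure D3:**
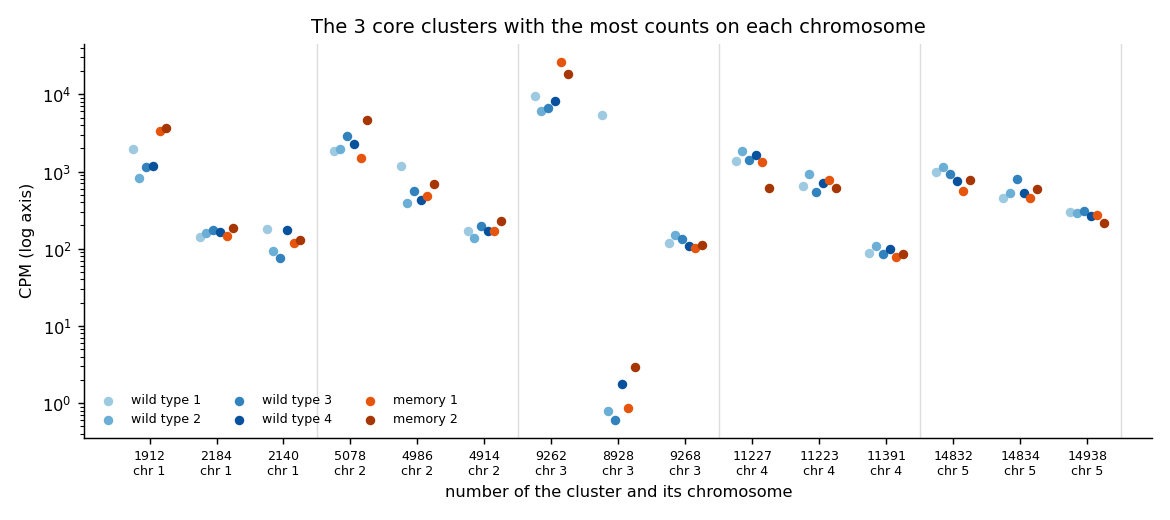
CPM (log axis) of the 3 core clusters with the most counts on each chromosome, 1 point per library. Cluster_9262 and Cluster_1912 have both memory points above the 4 wild type points, and Cluster_8928 has wild type 1 at 5467 CPM and all other libraries below 3 CPM.

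Chromosome 2 also carries a copy of the mitochondrial genome in its window. Words of the mitochondrial genome made up 13.3% of the words of this window and at most 0.0101% of any other. They were concentrated in 27 neighbouring bins of 10 kb between 3240000 and 3509999. Of the core clusters, 26 were copies of organelle sequence by this measure. The widest core cluster, Cluster_4914 (3303700 to 3357598, 53899 bases), lies here, with 98.5% mitochondrial words. It had 2547, 1921, 2283 and 1921 counts in wild type, against 2191 and 1402 in the memory plants, or 170 ± 24.6 CPM (n = 4) and 200 ± 41.1 CPM (n = 2), which was not distinguishable (edgeR adjusted p = 0.674). Reads of this insertion and of mitochondrial RNA cannot be told apart. Densities of the 26 clusters were taken without TMM scaling. They were 2.78 to 3.79 CPM per kb in wild type, against 3.28 and 2.88 in the memory plants.

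Among classes of core clusters, the tandem repeats had the highest densities per kb of cluster, apart from the ribosomal DNA copies. Repeat sequence outside clusters is not part of these densities. Of the bases in the 888-base set, clusters covered 21.9%, 63.9%, 41.3%, 50.7% and 29.3% in the windows of chromosomes 1 to 5. Of all bases of these windows they covered more, 47.0%, 79.6%, 66.1%, 75.3% and 66.3%. Clusters were sorted by the repeat period, a division made after the data had been seen. In 91 clusters at least 50% of bases lay in words that recur at 490 to 510 bases, here called the repeat near 500 bases. This class is set by period and need not be 1 sequence. By the same limit, 85 clusters were of the 178-base satellite. Densities of classes are given here without TMM scaling. The first class had 33.6, 57.7, 46.6 and 40.4 CPM per kb in wild type 1 to 4, and 33.6 and 27.6 in memory 1 and 2. Of its counts, 64.3% lay in Cluster_14832, Cluster_11223 and Cluster_14834, and without these 3 clusters its mean density over the 6 libraries was 14.6 CPM per kb in place of 39.9. On chromosome 1 it was 0.749 CPM per kb. The satellite had 14.1 to 23.6 CPM per kb in wild type, against 16.8 and 13.6 in the memory plants. Clusters at pseudogenes, 1330 in number, had 2.42 to 3.02 in wild type and 2.54 and 2.31 in memory. In the repeat near 500 bases both memory values lay below all wild type values, though memory 1 was close to wild type 1. The same order was found at the 88 clusters of protein-coding genes, with 3.51 to 4.05 in wild type, against 3.32 and 3.00 in the memory plants, and the opposite order in the 2 ribosomal DNA copies. In the other 5 classes the groups overlapped.

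The class of the repeat near 500 bases had 9, 74, 4 and 4 clusters on chromosomes 1, 3, 4 and 5. Around Cluster_11223 on chromosome 4 its words recurred at 498 bases, around Cluster_14832 on chromosome 5 at 502 bases, and around Cluster_9155 on chromosome 3 at 504 bases. The stretch shown above had a match of at least 70% identity in 46 of the 91 clusters, among them 41 on chromosome 3, 1 on chromosome 4 and 4 on chromosome 5, and in none on chromosome 1. Best matches on chromosome 1 had 33.3% to 40.7% identity. Those in Cluster_11224, Cluster_11225 and Cluster_11226 on chromosome 4 had 36% to 40%. The annotation marks no 5S ribosomal RNA gene in the nuclear genome, and whether these arrays hold such genes was not tested. On chromosome 3 the 74 clusters summed to 1124, 1074, 948 and 834 CPM in wild type 1 to 4 and to 697 and 745 CPM in memory, below all wild type libraries. On chromosome 4 the sums were 692 to 1024 CPM in wild type, against 832 and 794 CPM in the memory plants, and on chromosome 5 they were 1470 to 1861 CPM in wild type, against 1127 and 1477 CPM in the memory plants, with overlap on both. The 9 clusters of chromosome 1 summed to 4.44 to 11.9 CPM in wild type, against 4.14 and 0.654 CPM in the memory plants.

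Cluster_14832 (11185900 to 11186235) had 972, 1148, 920 and 764 CPM in wild type, against 563 and 781 CPM in the memory plants, and Cluster_11223 (3054302 to 3055266) had 540 to 922 CPM in wild type, against 770 and 604 CPM in the memory plants. Neither passed the test (edgeR adjusted p of 0.523 and 0.971). Cluster_11227, beside the latter, spans 15085 bases over the pseudogenes AT4G06477 and AT4G06480 and the protein-coding gene AT4G06479. It had the most counts of chromosome 4, with 1358 to 1854 CPM in wild type, against 1325 CPM in memory 1 and 614 CPM in memory 2, so the groups did not overlap (log2 fold change -0.69 ± 0.35, edgeR adjusted p = 0.534). Its fold change was -1.34 without memory 1 and -0.24 without memory 2. Cluster_14938, with 75.6% of its bases in words of the 178-base period, had 268 to 306 CPM in wild type, against 270 and 218 CPM in the memory plants. The satellite summed over all chromosomes to 1380 to 1594 CPM in wild type, against 1274 and 1424 CPM in the memory plants, so the groups overlapped. On chromosomes 2 and 5 they did not, with 261 ± 3.70 CPM in memory (n = 2) and 320 ± 25.6 CPM in wild type (n = 4) on the former, and 522 ± 89.4 and 665 ± 39.0 CPM on the latter.

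Shares within the core by class of sequence differed with and without the ribosomal DNA copies. All 6 classes, namely organelle copies, satellite, pseudogenes, protein-coding genes, other genes and no gene, had separate groups (exact permutation test, p = 0.133, adjusted p = 0.133 over 6 classes). Other genes, which include Cluster_9262, made up 50.0% ± 9.72 of core counts in memory (n = 2) and 25.9% ± 2.79 in wild type (n = 4). Each of the other 5 classes had the lower share in memory. When the ribosomal DNA copies were left out and the repeats set apart, no class had separate groups, with a share of 12.5% ± 0.488 in memory and 15.3% ± 2.74 in wild type for the repeat near 500 bases (exact permutation test, p = 0.4) and of 64.2% ± 2.10 and 60.2% ± 5.90 for pseudogenes (exact permutation test, p = 0.4).

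The test of memory against wild type ran over all 17131 clusters, and 15659 of them, with 1657 in the core, had enough counts. The remaining 389 core clusters were not tested. With edgeR, 0 core clusters had an adjusted p below 0.05, against 0.00639% (1 cluster) of all tested clusters. The lowest adjusted p in the core was 0.140. At an unadjusted p below 0.05 there were 144 core clusters (8.69%), where the whole genome had 10.5%. Of these, 34 were higher in memory (2.05%), where 4.92% of all clusters were, and 110 were lower (6.64%), where 5.56% of all clusters were. DESeq2 called 18 of 1187 core clusters with an adjusted p (1.52%), where it called 1.92% of all clusters with one. Of these 18, 3 were higher and 15 lower, where 0.745% and 1.18% of all clusters were. The likelihood ratio test of edgeR also called 18 (1.09%), where it called 0.875% of all clusters, and 9 clusters were called by both. In 280 core clusters (16.9%) the memory values did not overlap the wild type values, against 22.1% of all tested clusters. Memory was higher in 56 of them (3.38%, against 10.1% of all tested clusters) and lower in 224 (13.5%, against 12%). The core share thus lay below that of all tested clusters for clusters higher in memory and slightly above it for clusters lower in memory. The flanks leaned the same way, with 5.68% higher and 17.1% lower in memory without overlap. At an unadjusted p below 0.05 the flanks had 2.34% higher and 7.77% lower, so this lean was not particular to the core.

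Core and flank clusters had slightly negative median fold changes. The median log2 fold change was -0.17 in the core, -0.16 in the flanks and 0.01 in the arms, where all tested clusters had -0.03. When libraries were scaled by their size alone, these became -0.37, -0.37, -0.19 and -0.23, so the core lay below the arms in both. Taken per library against the wild type mean, the median core cluster stood at -0.16 in memory 1 and -0.18 in memory 2, and between -0.03 and 0.02 in wild type. Arm clusters stood at 0.03 and -0.0033 in memory, and flank clusters at -0.10 and -0.19. The wild type values lie near 0 by construction, so that no test was made on them. In 29 tested core clusters (1.75%, against 1.25% in the flanks and 0.484% in the arms) both memory libraries were at 0, and in 0 all 4 wild type libraries were. The 2 counts cannot be compared, since 2 libraries reach 0 more easily than 4. Clusters at 0 in both memory libraries also passed the filter only through their wild type counts. Setting these clusters at their bounds left the core median at -0.17. Fewer sRNA molecules at these loci and more of other sRNA in the library cannot be told apart in counts scaled to a total.

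**Figure D4:**
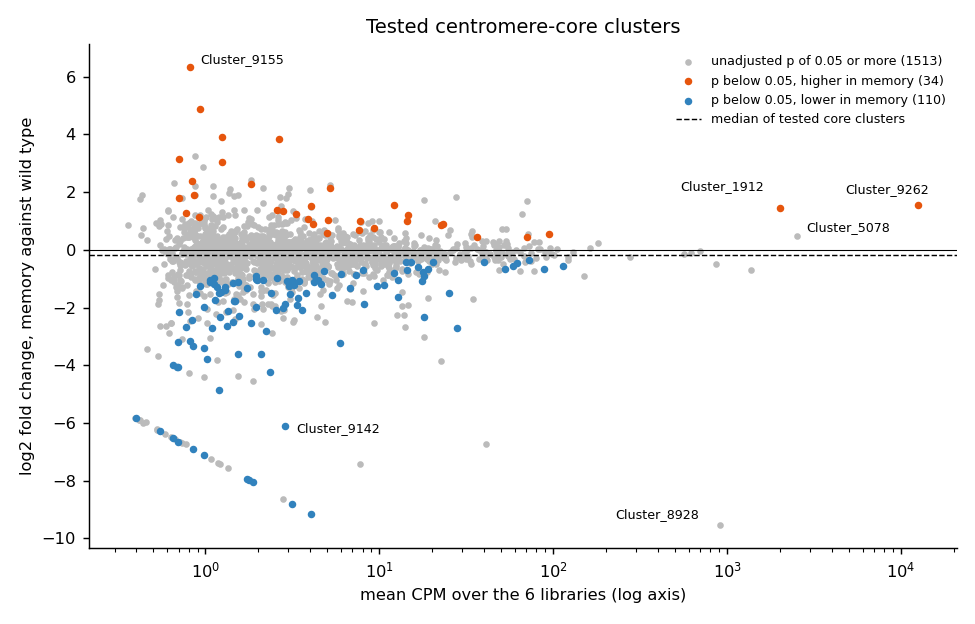
Log2 fold change of memory against wild type (edgeR) against mean CPM over the 6 libraries (log axis) for the 1657 tested core clusters, with those of unadjusted p below 0.05 in colour. Points in colour lie mostly below 0, the band at the lower left holds clusters at 0 in both memory libraries, whose fold depends on the prior count, and no cluster passed the adjusted threshold.

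The counts were spread over the chromosomes. At an unadjusted p below 0.05 there were 30 of 260 tested clusters on chromosome 1, 29 of 335 on chromosome 2, 30 of 372 on chromosome 3, 28 of 342 on chromosome 4 and 27 of 348 on chromosome 5, or 7.76% to 11.5% where all tested clusters had 10.5%. Among the classes made after the data had been seen, the repeat near 500 bases had 13 of 75 (17.3%), with 2 higher and 11 lower in memory and a median log2 fold change of -0.51. The satellite had 7 of 73 (9.59%), with 1 higher and 6 lower and a median of -0.16. The widest cluster of each chromosome did not pass the test either. Cluster_1898 on chromosome 1 had 11.5 ± 1.04 CPM in memory and 15.6 ± 1.09 CPM in wild type (edgeR adjusted p = 0.457), Cluster_9275 on chromosome 3 had 61.3 ± 5.36 and 80.4 ± 25.5 CPM, Cluster_11357 on chromosome 4 had 62.6 ± 5.18 and 65.7 ± 2.75 CPM, and Cluster_14802 on chromosome 5 had 35.7 ± 7.59 and 43.0 ± 9.15 CPM.

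The 5 clusters with the lowest p among those higher in memory were small, apart from Cluster_9262. Cluster_9155, a part of the repeat near 500 bases on chromosome 3 (13774499 to 13775072), had 1 count in wild type 1, 0 in the other wild type libraries, and 32 and 14 in memory 1 and 2. The ratio of pooled CPM was 126, with a counting interval of 21.5 to 5071, and it had the lowest p of the core (edgeR adjusted p = 0.140). Cluster_4985, at the pseudogene AT2G09870, had 7, 3, 3 and 5 counts in wild type, against 23 and 26 in the memory plants (log2 fold change 3.05 ± 0.52). Cluster_2052, at AT1G40117, had 2, 0, 1 and 1 counts against 13 and 26. Cluster_2073, at the pseudogenes AT1G40230 and AT1G40310, had 46, 28, 16 and 35 counts against 98 and 85, or 2.40 ± 0.840 and 10.8 ± 4.42 CPM. Its log2 fold change was 2.15 ± 0.42 (edgeR adjusted p = 0.303), and DESeq2 gave an adjusted p of 0.00314. Only 13.8% to 49.9% of the words of these 4 clusters occur once in the genome.

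The 5 with the lowest p among those lower in memory were small as well. Cluster_2172, at the pseudogene AT1G42375, had 34, 35, 24 and 22 counts in wild type 1 to 4, and 1 and 2 in memory, a pooled ratio of 0.0713 with a counting interval of 0.0145 to 0.214. Cluster_14794, at AT5G28990 and AT5G28993, had 19, 14, 13 and 16 counts against 1 and 1. Cluster_9142, of the class of the repeat near 500 bases on chromosome 3 (13724836 to 13725172), had 28, 88, 77 and 25 counts against 1 and 0. Cluster_9155 is of the same class, and the opposite order of the 2 clusters was fixed by picking each for its direction. Cluster_14897, at AT5G31511, had 49, 20, 55 and 47 counts against 1 and 2. Cluster_15059 lies over the pseudogenes AT5G32518 and AT5G32522 (12176904 to 12183669) and had the most counts of the 5, with 143, 131, 86 and 84 in wild type, against 41 and 22 in the memory plants. Its values of 3.40 ± 0.279 CPM in memory (n = 2) and 8.50 ± 1.22 CPM in wild type (n = 4) did not overlap, with a log2 fold change of -1.32 ± 0.26 (edgeR adjusted p = 0.303, DESeq2 adjusted p = 0.0139). Placement of reads among copies of a repeat can differ between libraries, and its part in these differences was not tested.

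Some core clusters belonged almost wholly to 1 plant. Of 1578 core clusters with at least 20 counts in all, 29 (1.84%) had 1 library at least 8-fold above the next, which was set at the floor where it was lower. The same was found for 1.49% of such clusters in the flanks and 3.12% in the arms. In the core, wild type 1 was that library in 14 of them, which held 95689 counts or 16.7% of its core counts (95% Wilson interval 16.6% to 16.8%). The largest was Cluster_8928 (chromosome 3, 12780981 to 12784947), over the pseudogenes AT3G31410 and AT3G31425. It had 81066 counts in wild type 1 and 11, 7 and 20 in wild type 2 to 4, and 11 and 18 in memory. Its log2 fold change of -9.54 therefore rested on wild type 1, and was 0.79 without that library. Of its words, 62.5% occur once in the genome. Other libraries had smaller ones, such as Cluster_11570 at AT4G07846 with 870 counts in wild type 3 and 0 in every other library.

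The single-plant cluster in wholly unique sequence with the most counts was Cluster_2183 (chr1:15929230-15929376, forward strand). It lies across the end of exon 11 of AT1G42470, which encodes a Patched family protein, and the intron that follows. It had 4076 counts in wild type 1, against 3, 4 and 4 in wild type 2 to 4 and 0 and 5 in memory. It was not tested, since too few libraries held enough counts. Its 147 bases are shown with the 98 exon bases in capitals.
Cluster_2183: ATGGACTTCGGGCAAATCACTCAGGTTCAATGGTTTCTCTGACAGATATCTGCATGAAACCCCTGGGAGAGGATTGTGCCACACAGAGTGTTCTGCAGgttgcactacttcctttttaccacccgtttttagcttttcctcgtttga

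Libraries agreed less with each other over core clusters than elsewhere. Spearman's correlation of CPM across the 1657 tested core clusters was 0.745 to 0.790 between wild type libraries, 0.710 between the memory libraries and 0.715 to 0.790 between groups. In the flanks the same ranges were 0.899 to 0.938, 0.898 and 0.877 to 0.927. In the arms they were 0.859 to 0.924, 0.881 and 0.842 to 0.905. The correlations are descriptions across clusters, which share their libraries. Tested core clusters also had lower values, with a median of 2.65 CPM against 6.35 in the flanks and 5.76 in the arms. The part of this in the correlations was not tested. Over the 4 wild type plants, the median SD of log2(CPM + 0.5) at 2 to 8 CPM was 0.44 in the core. In the flanks it was 0.35 and in the arms 0.37. The spread between the 4 wild type plants was larger where sequence was repeated. At 2 to 8 CPM the median SD of log2(CPM + 0.5) was 1.17 in the 62 core clusters with up to 25% of unique words, 0.58 at 25% to 50%, 0.42 at 50% to 75%, and 0.32 in the 198 with over 75%. Arm clusters with over 75% of unique words had 0.34. Wild type 1, which was the high library in 250 of the 356 single-plant clusters of the arms too, was also the deepest library, and the part of depth in its single-plant clusters was not tested.

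**Figure D5:**
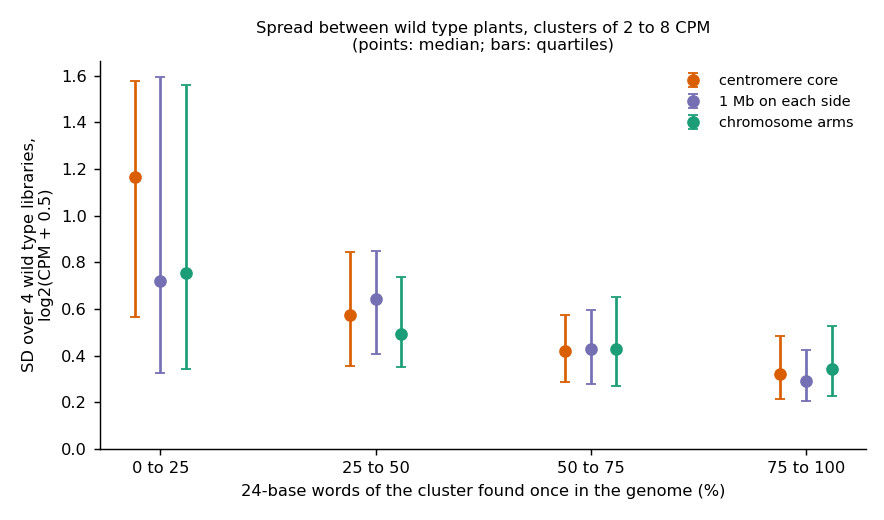
SD of log2(CPM + 0.5) over the 4 wild type libraries for clusters of 2 to 8 CPM, by the percentage of 24-base words found once in the genome, with medians as points and quartiles as bars. In core, flank and arm clusters alike the highest medians are in the most repeated sequence, 1.17, 0.72 and 0.75.

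The edges of the windows did not mark a step in every case. The 10 clusters just inside the edges had 0.391 to 19.1 CPM in wild type, with a median of 2.27, and 0.572 to 18.4 CPM in memory, with a median of 1.73. The 10 just outside had 1.22 to 167 CPM in wild type, with a median of 9.43, and 0.963 to 179 CPM in memory, with a median of 6.78. These values are per cluster and not per kb, and the widths of the clusters differed. The cluster with 167 CPM spans 20592 bases. The part of width in the difference was not tested.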

How the data were processed

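Small RNA was sequenced from leaves of 2 memory and 4 wild type plants (TruSeq small RNA kit, BGISEQ-500, single-end reads). The authors aligned each library to TAIR10 with ShortStack in its align-only mode, otherwise at default settings, which place reads with several matches by the tool's own rule. They merged the alignments with SAMtools and deposited whole-number counts of reads per cluster. Placement can move counts between copies of a repeat. How clusters were defined and counted is not given in the sources used here. The study describes its screen as one of 24-nt sRNA, and the tables do not say whether other lengths were left out.

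The deposited counts were tested with edgeR 4.0.16 (R 4.3.3): TMM scaling, filterByExpr, the quasi-likelihood test, and Benjamini-Hochberg adjustment over all 15659 tested clusters. DESeq2 1.42.0 and edgeR's likelihood ratio test were alternatives. Other alternatives were scaling by library size, other count filters, each library left out, a replicate block, other windows and flanks, and other class limits. Shares and densities were compared with exact two-sided permutation tests (scipy 1.17.1). Sequence features came from 24-base words of the RefSeq TAIR10.1 genome. The procedure was tested on simulated data. The p-values measure the spread between single plants, and intervals cover counting error only, since reads are not independent molecules.

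The named clusters were the 3 with the most counts and the widest on each chromosome, the 5 with the lowest p in each direction, and the satellite cluster with the most counts. Clusters of single plants were named after their values were seen. The members, lists and rules were chosen with earlier results of these data known. The classes of ribosomal DNA copies, of the 178-base satellite and of the repeat near 500 bases were chosen after seeing the data, as the rule for the satellite had given a period of 888 bases. The comparisons without the ribosomal DNA copies, without Cluster_8928 and without the cluster with the most counts of each chromosome were also chosen after seeing the data.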

Additional observations from a re-analysis of the deposited data

Results flagged for a closer look

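Of 42 values examined over the 4 wild type libraries, 4 had 1 library far from the others by Dixon's test, where chance gives about 1 in 20, or 2.1. Cluster_8928 had 5467 CPM in wild type 1, where the other wild type libraries averaged 1.06 CPM. Cluster_9275, the widest of chromosome 3, had 118 CPM in wild type 1, where the others averaged 67.8 CPM. Cluster_9155 had 0.0674 CPM in wild type 1, which is 1 count, and 0 in the others. The share of core counts at protein-coding genes was 2.40% in wild type 4, where the others averaged 2.58%.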

How the results depend on the processing

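With DESeq2 18 core clusters were called, and with edgeR's likelihood ratio test 18, against 0 with the quasi-likelihood test. The 144 clusters at an unadjusted p below 0.05 became 75 with at least 10 counts in every library, 77 in the central 1 Mb, and between 97 and 246 when 1 library was left out, the highest without memory 1. No source pairs the plants, and deviations of libraries with the same number had a correlation of -0.07. In the 4 libraries numbered 1 and 2, the replicate block gave 63 such clusters and the fit without it 79. The difference in the core share (memory minus wild type) turned to -0.181 points in the central 1 Mb, -0.385 without the ribosomal DNA copies and -0.273 without Cluster_8928 as well. The difference was 1.79 points with Cluster_9265 and Cluster_4135 left out of the total. That of chromosome 3 turned to -0.190 without the copies, as it did without its cluster with the most counts, that of chromosome 1 to -0.0483 without its own, and that of other genes to -0.288 with the added classes. That of chromosome 2 was 0.000731 without memory 1. The log2 ratio of densities, core to flanks, was -1.83 for medians and -1.34 with flanks of 2 Mb. It was -0.74 without the copies, and -0.74 also without organelle copies and rRNA repeat clusters. Core to arms it was -2.70, -3.04, -3.49 and -3.18. Of the named clusters, 9 changed sign under some setting. Scaled by library size, Cluster_2184 had -0.20 and Cluster_4914 had -0.0077. With 1 library left out, the log2 fold change of Cluster_2184 ran from -0.13 (without memory 2) to 0.24, of Cluster_2140 from -0.27 to 0.12 (without wild type 1, and 0.08 without wild type 4), of Cluster_5078 from -0.58 (without memory 2) to 1.08, of Cluster_4986 from -0.40 to 0.35 (without wild type 1, and 0.11 without memory 1), of Cluster_8928 from -10.63 to 0.79 (without wild type 1), of Cluster_11223 from -0.21 to 0.12 (without memory 2, and 0.12 without wild type 2), of Cluster_11357 from -0.16 to 0.022 (without memory 1) and of Cluster_14834 from -0.38 to 0.059 (without memory 1, and 0.05 without wild type 3). Cluster_14834 had 0.068 with the replicate block and 0.079 in the same 4 libraries without it. The causes of these changes were not tested, beyond the clusters or libraries left out.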
